A study of Mus musculus with 2 samples.

Results

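The nuclear-encoded subunit genes of the mitochondrial respiratory chain were followed in mouse embryonic stem (ES) cells as they left the undifferentiated state. Members were taken by gene symbol from the platform annotation: the Nduf a, b, c, s and v series (complex I), Sdha to Sdhd (complex II), all Uqcr genes (complex III) and the Cox4 to Cox8 series (complex IV). The rule found 70 genes on 100 features among 22485 named genes, with 38 in complex I, 4 in complex II, 9 in complex III and 19 in complex IV. It also took in 4 genes that RefSeq lists as pseudogenes, Ndufa11b, Ndufs6b, Uqcrh-ps1 and Cox5b-ps, which are counted with their complexes and whose probes may share signal with the genes they resemble. Without them 66 members remain. It left out Ndufab1, Cyc1 and Cycs, which were described apart.

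Total RNA was hybridised to dual-colour Agilent arrays, 1 array for the wild-type ES line V6.5 and 1 for Utx knockout ES cells. Utx (gene symbol Kdm6a) takes the repressive mark H3K27me3 off histones. Untreated cells of each line were grown on gelatin with leukaemia inhibitory factor (LIF). Treated cells of the same line were cultured for 48 h without LIF and with 100 nM retinoic acid (RA), so the effects of RA and of losing LIF cannot be told apart. Below, RA stands for both changes. Each gene has 1 log2 ratio per array, read as RA-treated over untreated from the dyes in the labels, a likely direction. The labels do not say whether the knockout line is 1 clone.

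With 1 array per line, neither a ratio nor a difference between lines has a replicate check. Kdm6a had -0.39 in V6.5 and -0.16 in knockout cells, which compare treatments within a line and do not check the knockout. The ratios carry no level, so neither the labelled cell type nor the signal over background behind a value could be checked. Of 6 pluripotency markers, Klf4 and Pou5f1 fell in the shared fit described below and 0 rose, with 5 lower and 0 higher at an unadjusted p under 0.05 in limma. Over all named genes 7.93% fell and 8.93% rose, with 17.9% lower and 16.8% higher at that unadjusted p. Nanog had ratios of 0.29 and -0.16.

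The respiratory chain passes electrons from NADH through complex I, or from succinate through complex II, to ubiquinone. Complex III hands them to cytochrome c, and complex IV, cytochrome c oxidase, to oxygen. Complexes I, III and IV pump protons in doing so, and the ATP synthase uses the resulting gradient. Complex II is also the succinate dehydrogenase of the tricarboxylic acid cycle. The catalytic core of complex IV is encoded by mitochondrial DNA, and its small nuclear-encoded subunits include several with separate muscle, lung or testis isoforms. Pluripotent stem cells are known to rely strongly on glycolysis, and differentiation is commonly accompanied by a greater use of respiration.

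Most subunit genes had ratios near 0. Both ratios lay within 1.5-fold for 66 of the 70 members, or 94.3%, against 83.5% of all named genes. The median ratio of the members was -0.16 in V6.5 and -0.073 in knockout cells, beside -0.019 and -0.020 for all named genes. For scale, the SD between features of 1 gene had a median of 0.14 on each array. The ratio was below 0 on both arrays for 39 members (41.2% of all genes), above 0 on both for 18 (34.3%) and of opposite sign for 13 (24.4%).

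A shared fit with limma, which treats the 2 arrays as 2 samples of 1 response, called 7 of the 70 members at an adjusted p under 0.05. Of all named genes 16.9% were called, 8.93% up and 7.93% down, so 7 of 70 was a share below the background. Cox8c rose, and Cox8b, Ndufa4l2, Sdhd, Sdhc, Cox8a and Cox6b1 fell. At an unadjusted p under 0.05, 3 of the 70 members were higher and 20 lower, where 16.8% of all genes were higher and 17.9% lower, 34.7% in either direction. Errors below are limma's moderated SE (n = 2 arrays). With 1 residual and 2.98 prior degrees of freedom, they rest mostly on the spread between these arrays over all genes. A gene's own spread enters with less weight. The arrays are of different lines, so a difference between lines is part of this spread, and spread between cultures is not measured. No dye swap was used here, so any preference of a probe for Cy3 or Cy5 enters both ratios alike. In bulk RNA, fewer cells of a type and less RNA per cell cannot be told apart.

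**Figure D1:**
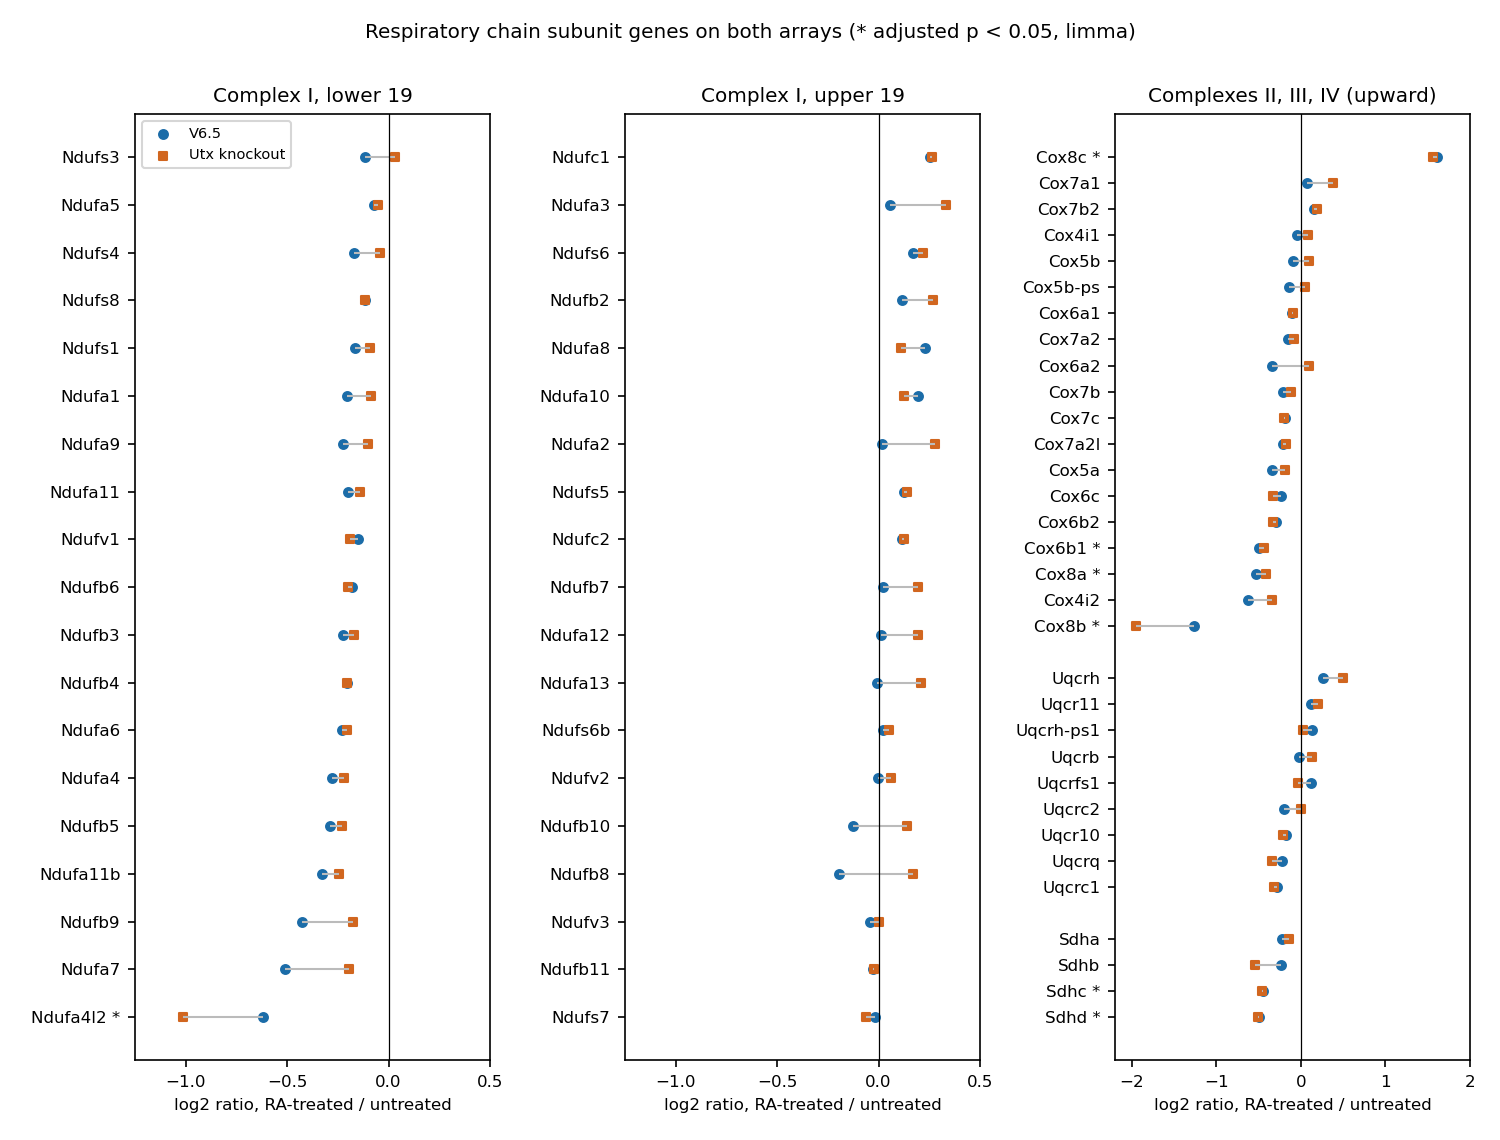
Log2 ratio of RA-treated to untreated cells (x axis) for each of the 70 members (y axis, ordered by mean within a complex) in V6.5 (circles) and the Utx knockout (squares). Grey lines join both arrays and asterisks mark the 7 genes called in limma. Most points lie between -0.5 and 0.5, while Cox8c stands at 1.61 and 1.56 and Cox8b at -1.27 and -1.95.

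Complex IV held both the highest and the lowest ratio of the 70 members. Cox8, a small subunit that spans the membrane, comes in 3 forms in the mouse: Cox8a in most tissues, Cox8b in heart and skeletal muscle, and Cox8c in testis. Cox8c had log2 ratios (RA over untreated) of 1.61 in V6.5 and 1.56 in knockout cells, which is 3.06-fold and 2.95-fold higher after RA. Its mean was 1.59 ± 0.07 (adjusted p = 0.00729 in limma), and it was the 1 member that also passed against 1.5-fold with treat (1.3% of all genes passed). Cox8b had -1.27 in V6.5 and -1.95 in knockout cells, 2.41-fold and 3.85-fold lower, with a mean of -1.61 ± 0.18 (adjusted p = 0.0189 in limma, and 0.116 against 1.5-fold with treat). The testis form was thus higher and the muscle form lower after RA in both lines, each on 1 feature. Cox8a had -0.53 and -0.41 and fell with a mean of -0.47 ± 0.08 (adjusted p = 0.0340 in limma). Its 2 features differed in V6.5, at -0.20 and -0.86, and lay close together in knockout cells, at -0.42 and -0.40. When each feature was tested on its own, 1 of the 2 passed.

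The ratio of Cox8c exceeded that of Cox8a by 2.14 in V6.5 and 1.97 in knockout cells, on the log2 scale. The ratio of Cox8b lay below that of Cox8a by more in knockout cells, with differences of -0.74 in V6.5 and -1.53 in knockout cells. These are differences between ratios within an array and say nothing of which form is most abundant. Cox8b and Cox8c were the 2 members past 2-fold in V6.5, where 4.11% of all genes were. In the knockout they were joined by Ndufa4l2, 3 members in all, against 4.57% of all genes.

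The 250 bases before the annotated start are shown for Cox8a and Cox8b because both genes fell while their upstream sequences differ in CpG content. They come from RefSeq (GRCm38.p6), on the minus strand, at chr19:7217617-7217866 for Cox8a and chr7:140900447-140900696 for Cox8b. Each is written 5′ to 3′, with CpG dinucleotides in capitals.
Cox8a: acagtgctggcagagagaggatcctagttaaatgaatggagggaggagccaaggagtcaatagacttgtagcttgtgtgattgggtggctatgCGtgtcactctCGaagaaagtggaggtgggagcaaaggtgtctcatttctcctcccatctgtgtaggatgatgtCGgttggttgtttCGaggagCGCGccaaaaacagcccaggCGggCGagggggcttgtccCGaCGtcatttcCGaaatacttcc
Cox8b: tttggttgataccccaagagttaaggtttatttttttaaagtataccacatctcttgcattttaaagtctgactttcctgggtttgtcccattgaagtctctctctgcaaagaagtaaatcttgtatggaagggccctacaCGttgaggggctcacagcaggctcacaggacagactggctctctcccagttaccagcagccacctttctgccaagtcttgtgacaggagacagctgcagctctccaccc
The Cox8a stretch holds 11 CpG and the Cox8b stretch 1. The median was 14 over the 55 promoters of the 53 members with an entry, and 6 over all 32841 promoters. Cox8c, Ndufa4l2 and Sdhc, all called, and Cox4i2 had no promoter entry. Cox8b had the lowest count of the members' promoters, and 18.8% of all promoters had a count as low. Cox7a1, another muscle form, had 4, as did Ndufc2 of complex I, while Uqcr10 and the ubiquitous Cox7b had 5.

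Other tissue forms of complex IV had ratios nearer 0 than Cox8b and Cox8c. Cox4i2, the lung form of a regulatory subunit that is also induced by low oxygen, had -0.63 in V6.5 and -0.35 in knockout cells. It did not pass (mean -0.49 ± 0.10, adjusted p = 0.0510 in limma), and passed when both arrays were scaled to a common spread (adjusted p = 0.0479) and when every feature was tested on its own (adjusted p = 0.0490). Its ubiquitous partner Cox4i1 had -0.050 and 0.080. The ratio of Cox4i2 was therefore below that of Cox4i1 on both arrays, by differences of -0.58 and -0.43.

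Cox6b1, which lies on the intermembrane side and helps to hold the complex as a dimer, had -0.50 and -0.44 and fell (mean -0.47 ± 0.07, adjusted p = 0.0318 in limma). Its testis form Cox6b2 had -0.30 and -0.33 without passing (adjusted p = 0.0621). Both forms were lower on both arrays, with Cox6b2 above Cox6b1 by 0.20 and 0.11.

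Cox7a1, the muscle form of Cox7a, had 0.072 in V6.5 and 0.38 in knockout cells, while the ubiquitous Cox7a2 had -0.15 and -0.084. The testis form Cox7b2 had 0.15 and 0.19, against -0.21 and -0.11 for Cox7b. In both pairs the tissue form had the higher ratio on both arrays, though none of these 4 genes passed in limma (adjusted p of 0.226 for Cox7a1, 0.345 for Cox7a2, 0.197 for Cox7b2 and 0.232 for Cox7b). Cox6a2, the muscle form of Cox6a, had -0.34 in V6.5 and 0.093 in knockout cells, and Cox6a1 had -0.11 and -0.091. The order of this pair was reversed between the lines, with differences of -0.23 and 0.18.

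Of the 8 pairs of a tissue-specific or inducible form and its partner, Ndufa4l2 included, 7 kept the order of their ratios in both lines. The tissue forms did not share a direction. Of these 8 forms, 4 were below 0 on both arrays, 3 above 0 on both and 1 of opposite sign. They held 1 of the calls up and 2 of the calls down, beside 8.93% up and 7.93% down over all genes.

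**Figure D2:**
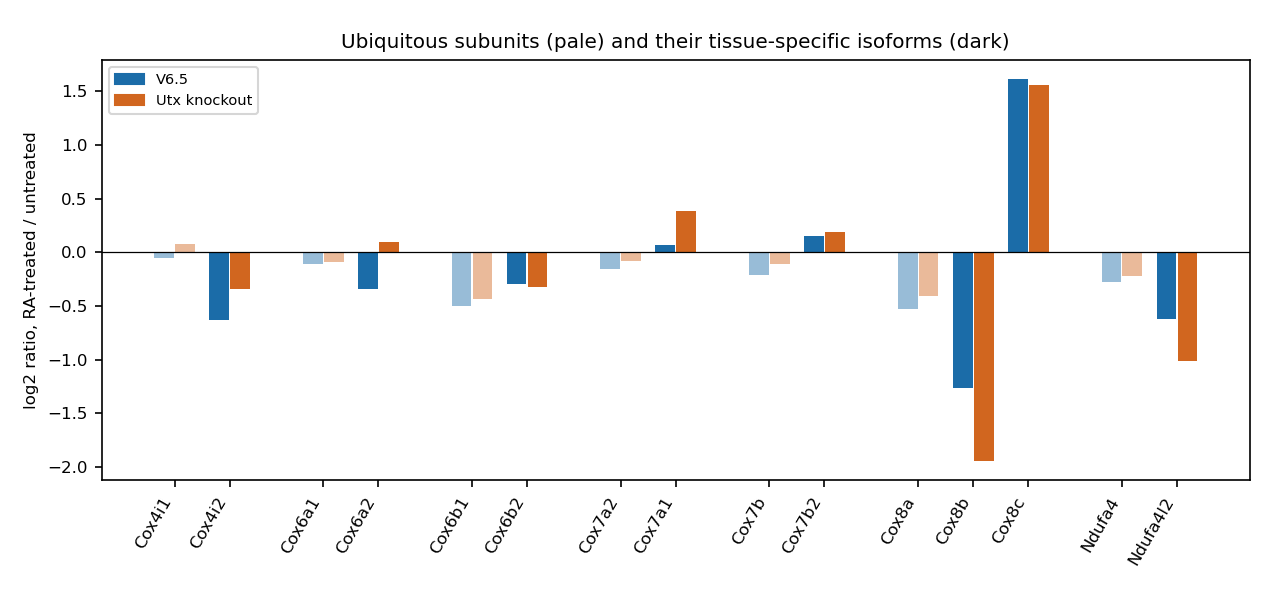
Log2 ratio of RA-treated to untreated cells (y axis) for ubiquitous subunits (pale bars) and their tissue-specific or inducible forms (dark bars), in V6.5 (blue) and the Utx knockout (orange), 1 array each. Cox8b and Cox8c stand on opposite sides of 0, and the ratios of all other forms drawn lie between -1.01 and 0.38.

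Among the other ubiquitous subunits of complex IV, Cox5a had -0.34 and -0.19, Cox6c -0.24 and -0.34 and Cox7c -0.18 and -0.20. Cox5b had -0.099 and 0.097, and its pseudogene Cox5b-ps had -0.14 and 0.052. Cox7a2l, which takes part in joining complexes III and IV into supercomplexes, had -0.21 and -0.18 over 3 features. None of these 6 genes passed in limma, the lowest adjusted p being 0.0803 for Cox6c. Over complex IV, 1 gene rose and 3 fell of 19, where 16.9% of all genes were called. At an unadjusted p under 0.05, 1 was higher and 7 lower, where 34.7% of all genes passed. The median ratio was -0.21 in V6.5 and -0.11 in knockout cells. Without the tissue forms, the 12 remaining members had medians of -0.20 and -0.15, and 9 of them were below 0 on both arrays.

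All 4 genes of complex II had ratios below 0 on both arrays. Sdhd and Sdhc encode the membrane anchors that carry the ubiquinone site. Sdhd had -0.49 in V6.5 and -0.51 in knockout cells, with a mean of -0.50 ± 0.07 (adjusted p = 0.0271 in limma). Sdhc had -0.45 and -0.46, with a mean of -0.45 ± 0.07 (adjusted p = 0.0319). The 2 features of Sdhc lay at -0.42 and -0.48 in V6.5 and at -0.41 and -0.50 in knockout cells. The lines were alike for both anchors, with knockout minus V6.5 differences of -0.018 for Sdhd and -0.0053 for Sdhc.

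Sdhb, the iron-sulfur subunit, had -0.24 in V6.5 and -0.54 in knockout cells and did not pass (mean -0.39 ± 0.10, adjusted p = 0.0835). Its features disagreed, at -0.46 and -0.0098 in V6.5 and at -0.74 and -0.34 in knockout cells. Tested alone, the first of these features passed (adjusted p = 0.0309). Sdha, the flavoprotein that oxidises succinate, had -0.22 and -0.14 (adjusted p = 0.184). The anchors and the catalytic subunits thus had ratios of 1 sign, and 2 of the 4 genes passed, where 16.9% of all genes did.

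Sdhd is separated by 51 bases from the neighbouring gene Timm8b, which encodes a small chaperone of mitochondrial import. The stretch between both genes is shown because it lies upstream of Sdhd and next to a gene that was not called. A stretch is given for Cox6b1 as well, since it too was called down and holds the same motif. They are from RefSeq (GRCm38.p6), at chr9:50603850-50603900 and chr7:30626115-30626364, both on the minus strand. Capitals mark the ETS core, CCGGAAG or its reverse complement, a motif bound by ETS factors such as GABPA, which is known for its role at respiratory genes.
Sdhd: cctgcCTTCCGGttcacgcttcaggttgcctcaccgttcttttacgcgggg
Cox6b1: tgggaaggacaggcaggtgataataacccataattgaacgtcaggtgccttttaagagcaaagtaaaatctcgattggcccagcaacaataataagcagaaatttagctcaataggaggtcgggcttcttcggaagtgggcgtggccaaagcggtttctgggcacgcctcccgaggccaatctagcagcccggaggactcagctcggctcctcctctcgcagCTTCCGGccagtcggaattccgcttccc
Timm8b had -0.17 in V6.5 and 0.23 in knockout cells and was not called (adjusted p = 0.897 in limma). Other called members also had a gene close by. Ndufa4l2 lies 450 bases from Stac3, an adaptor protein of muscle, which fell with it (-0.59 and -0.69, adjusted p = 0.020 in limma), and overlaps Shmt2, a mitochondrial enzyme of serine metabolism, which did not pass (-0.094 and -0.48). Cox8b lies 299 bases from the proteasome gene Psmd13, which was below 0 on both arrays without passing (-0.33 and -0.39, adjusted p = 0.0506). Neighbours thus differed in whether they passed with the member. The ETS core occurred on either strand in 8 of the 55 member promoters, or 14.5%, and in 6.91% of all promoters of 250 bases. Besides Sdhd and Cox6b1 these were Ndufb6, Ndufb7, Ndufs3, Uqcr11, Uqcrh and Cox6a1, none of them called. Of these, Ndufb7, Uqcr11 and Uqcrh were above 0 on both arrays, Ndufb6 and Cox6a1 below, and Ndufs3 of opposite sign. Cox8a and Cox8b, also called down, lacked the motif. The motif of NRF1, another regulator of respiratory genes, was searched as GCGCA followed directly by its reverse complement. It occurred in 2 member promoters, or 3.64%, and in 0.783% of all. The ETS core and the NRF1 motif both contain CpG. Member promoters had a median of 14 CpG against 6 over all promoters, so these shares compare promoters of unlike CpG content. The part of CpG content in these shares was not tested. The half-site of nuclear receptors, AGGTCA, occurred in 9 member promoters, or 16.4%, and in 14.0% of all. A direct repeat of this half-site with a gap of 5 bases, one form of the RA response element, occurred in 0 member promoters and in 3 of all 32841. Only this exact form was searched, and at so low a share over all promoters the 0 says nothing about the members. The called genes Cox8c, Ndufa4l2 and Sdhc had no promoter entry, so none of these motif searches covered them. The repeat contains the half-site, so these searches overlap. The general promoter motifs GGGCGG and CCAAT occurred in 36.4% and 38.2% of the member promoters and in 32.7% and 33.9% of all. The STAT motif, TTCC and GGAA with a gap of 1 base, occurred in 1 member promoter, or 1.82%, and in 0.913% of all. The YY1 core AAGATGG occurred in 0 member promoters and in 4.49% of all. These matches describe letters and not binding.

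Complex III was divided between both directions and had no gene that passed. Of its 9 members 0 passed in limma, with 1 higher and 2 lower at an unadjusted p under 0.05, and 0 with robust eBayes. Over all genes 16.9% passed in limma, and 34.7% had an unadjusted p under 0.05. The median ratio was -0.019 in V6.5 and 0.0022 in knockout cells. Uqcrc1, a large subunit on the matrix side, had -0.28 and -0.31 (adjusted p = 0.0680). Uqcrq had -0.22 and -0.35 (adjusted p = 0.0884), and 1 of its 2 features passed alone. Uqcr10 had -0.18 and -0.21 over 3 features. These 3 genes were lower on both arrays.

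At the other end, Uqcrh, the hinge protein at the docking site of cytochrome c, had 0.26 in V6.5 and 0.49 in knockout cells (adjusted p = 0.0710), with both features above 0 on both arrays. Uqcr11 had 0.12 and 0.21 (adjusted p = 0.229), and the pseudogene Uqcrh-ps1 had 0.13 and 0.021 (adjusted p = 0.548). Uqcrc2, the partner of Uqcrc1, was the most densely measured member, with 10 features. It had -0.20 in V6.5 with an SD between features of 0.071, and 0.0022 in knockout cells with an SD of 0.087. The gap of 0.20 between the lines exceeded that spread, which covers features of 1 array and not cultures. Whether the 10 features are different probes or repeats of 1 probe was not checked.

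Complex I, the largest group, had 1 call among 38 genes, where 16.9% of all genes were called. Ndufa4l2 had -0.62 in V6.5 and -1.01 in knockout cells and fell (mean -0.82 ± 0.12, adjusted p = 0.0290 in limma). It is a relative of Ndufa4 that is induced by hypoxia-inducible factor, and Ndufa4 itself, named for complex I, is now known as a subunit of complex IV. Ndufa4 had -0.28 and -0.22 (adjusted p = 0.0995). With both counted in complex IV, complex I had 0 calls, with 1 higher and 6 lower at an unadjusted p under 0.05, and complex IV had 1 up and 4 down. At that unadjusted p 16.8% of all genes were higher and 17.9% lower.

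Next to Ndufa4l2 the lowest means were those of Ndufa7, with -0.51 and -0.19, and Ndufb9, with -0.43 and -0.18. Both are accessory subunits, and both lay lower in V6.5. In limma their adjusted p were 0.106 and 0.115. The highest means were those of Ndufc1, with 0.25 and 0.26 (adjusted p = 0.0902), Ndufa3, with 0.057 and 0.33 (adjusted p = 0.261), and Ndufs6, with 0.17 and 0.22 (adjusted p = 0.160). Ndufc1 was alike in both lines, while Ndufa3 was near 0 in V6.5. The median of complex I was -0.12 in V6.5 and -0.033 in knockout cells, with 20 genes below 0 on both arrays, 12 above 0 on both and 6 of opposite sign.

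Of the conserved core subunits of complex I that the nucleus encodes, 6 were measured here. Ndufv1, which binds NADH and its flavin, had -0.15 and -0.19, and Ndufs1, which carries iron-sulfur clusters, had -0.17 and -0.090. Ndufs8 had -0.12 and -0.11, Ndufs7 -0.018 and -0.062, Ndufs3 -0.12 and 0.030, and Ndufv2 -0.0017 and 0.061. Of these core genes 0 passed in limma and 0 had an unadjusted p under 0.05, against 16.9% and 34.7% of all genes. Their medians of -0.12 and -0.076 lay beside -0.10 and -0.012 for the 32 other members of complex I. By series, the Ndufa genes had medians of -0.20 and -0.086 over 15 genes, the Ndufb genes -0.19 and -0.098 over 10 and the Ndufs genes -0.067 and -0.0055 over 8. Both Ndufc genes were above 0 on both arrays.

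The knockout gave ratios slightly above those of V6.5 for most members. The difference, knockout minus V6.5, was above 0 for 50 of the 70, where 50.7% of all named genes were above 0. Its median was 0.056 over the members and 0.0031 over all genes, on the log2 scale. In complex I 31 of 38 differences were above 0, in complex IV 14 of 19, in complex III 4 of 9 and in complex II 1 of 4. The differences ran from -0.68 for Cox8b to 0.44 for Cox6a2, and 0 of the 70 reached 2-fold, where 1.05% of all genes did. Among the widest after these were -0.40 for Ndufa4l2, 0.36 for Ndufb8, 0.32 for Ndufa7, 0.31 for Cox7a1 and -0.30 for Sdhb. With 1 array per line none of these differences could be tested.

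Across the members the ratios of both arrays correlated with a Pearson r of 0.90 (n = 70 genes), beside 0.84 over all named genes. Without the 3 Cox8 genes, the r over 67 members was 0.82. Genes are not independent replicates, and both arrays share the dye orientation.

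**Figure D3:**
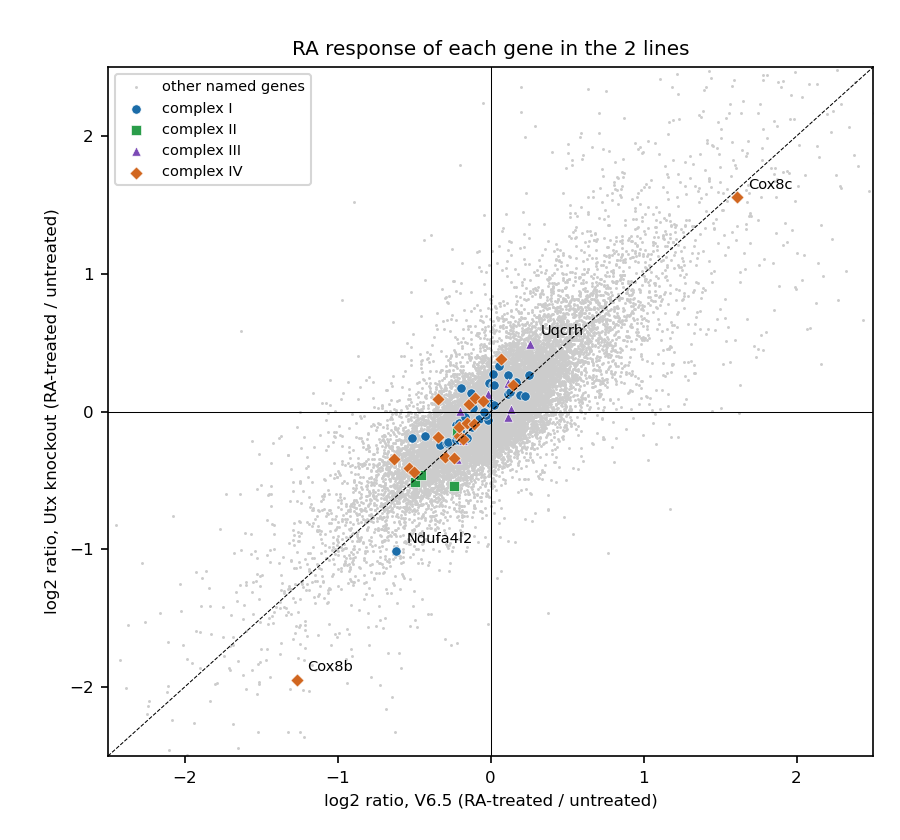
Log2 ratio of RA-treated to untreated cells in V6.5 (x axis) against the Utx knockout (y axis), with members coloured by complex and other named genes in grey; 118 other genes lie outside the axes. The dashed line marks equal ratios. Members sit in the centre of the cloud, apart from Cox8c (1.61 and 1.56), Cox8b (-1.27 and -1.95) and Ndufa4l2 (-0.62 and -1.01).

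Other genes of the respiratory system were set beside the members. Of the 3 subunits outside the symbol rule, Ndufab1, the mitochondrial acyl carrier protein that is also part of complex I, rose (0.50 and 0.61, mean 0.56 ± 0.08, adjusted p = 0.0251 in limma). Cyc1, the cytochrome subunit of complex III, had -0.070 and -0.0076. Cycs, cytochrome c itself, had 0.20 and 0.16 over 3 features without passing (adjusted p = 0.185).

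Of 17 measured ATP synthase genes 0 passed in limma, with 0 higher and 2 lower at an unadjusted p under 0.05. For this list and the next, the shares over all genes were 16.9% passing and 34.7% at the unadjusted p. Their medians were -0.12 in V6.5 and 0.0036 in knockout cells. Of 16 genes of the tricarboxylic acid cycle 0 passed, with 1 higher and 4 lower at an unadjusted p under 0.05 and medians of -0.095 and -0.087. Both lists had both ratios within 1.5-fold for all members but 1 of the tricarboxylic acid cycle.

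Among genes that help to assemble the complexes, calls were all downward. Of 44 assembly factors 9 fell and 0 rose, against 7.93% down and 8.93% up over all genes. At an unadjusted p under 0.05 in limma, 17 were lower and 3 higher, where 17.9% of all genes were lower and 16.8% higher. Foxred1, a factor for complex I, had -0.75 and -0.79 (mean -0.77 ± 0.07, adjusted p = 0.0150 in limma). Cox18, which inserts a mitochondrially encoded subunit of complex IV into the membrane, had -0.59 and -0.63, and Ndufaf7, a methyltransferase for complex I, had -0.58 and -0.62. The copper chaperone Sco1 had -0.55 and -0.46. The other genes that fell were Cox10, Coa5, Ndufaf6, Uqcc1 and Surf1. The 44 factors had a median ratio of -0.16 in V6.5 and -0.19 in knockout cells.

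Of 18 regulators of mitochondrial biogenesis 1 rose and 3 fell, where 8.93% of all genes rose and 7.93% fell. The coactivator Ppargc1b had -0.81 and -1.02 (mean -0.91 ± 0.09, adjusted p = 0.0156 in limma), and its relative Pprc1 -0.74 and -0.86. The subunits of the mitochondrial DNA polymerase parted, with 0.50 and 0.46 for the catalytic Polg, which rose, and -0.46 and -0.47 for the accessory Polg2, which fell. Of 12 genes linked to hypoxia, listed because Ndufa4l2 and Cox4i2 are induced by low oxygen, 1 fell and 0 rose, beside the same background of 7.93% down. It was Pdk1, a kinase that restrains pyruvate dehydrogenase, with -0.90 and -0.58. Higd1a (-0.31 and -0.40, adjusted p = 0.0538 in limma), Hif1a (-0.37 and 0.057), Vegfa (-0.072 and 0.28) and Ldha (0.14 and -0.19) did not pass. Of the 12 genes, 4 were below 0 on both arrays, 2 above 0 on both and 6 of opposite sign. At an unadjusted p under 0.05 in limma, 2 were lower and 0 higher, where 17.9% of all genes were lower and 16.8% higher.

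**Figure D4:**
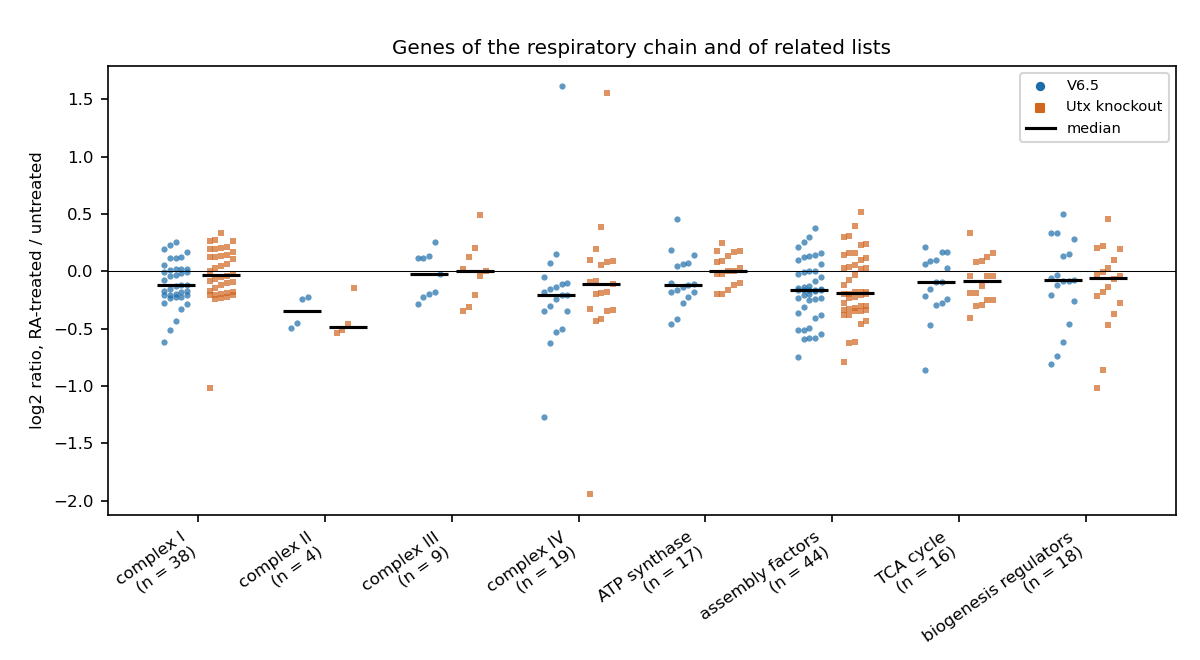
Log2 ratio of RA-treated to untreated cells (y axis) of each gene of complexes I to IV, the ATP synthase, the assembly factors, the tricarboxylic acid (TCA) cycle and the biogenesis regulators, in V6.5 (circles) and the Utx knockout (squares). Black lines are medians: those of complex II are -0.34 and -0.48, those of the assembly factors -0.16 and -0.19, and those of complex III -0.019 and 0.0022.

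Markers of other cell types moved on the same arrays, where 8.93% of all named genes rose and 7.93% fell. Of 10 fibroblast markers, listed because ES cells are often kept on feeder fibroblasts, 8 fell and 0 rose, with medians of -1.20 in V6.5 and -1.34 in knockout cells. Of 12 striated muscle markers 3 rose and 1 fell: Actn2 (2.51 and 2.17), Myh6 (1.08 and 1.34) and Actc1 (0.77 and 0.90) rose, and Mb (-0.76 and -0.58) fell. The muscle creatine kinases Ckm (0.085 and -0.075) and Ckmt2 (-0.079 and -0.032) did not pass. Myl7 (0.19 and 0.32) and Myh7 (0.20 and 0.21) were above 0 on both arrays without passing. At an unadjusted p under 0.05 in limma, 5 of the 12 were higher and 1 lower. Of all genes, 16.8% were higher and 17.9% lower at that p. By sign, 5 of the 12 were below 0 on both arrays, 5 above 0 on both and 2 of opposite sign. Muscle markers thus stood on both sides of 0 on arrays where the muscle form Cox8b fell. Of 10 spermatogenic markers 1 rose and 0 fell, close to the shares over all genes. The marker that rose was the germ cell helicase Ddx4 (0.64 and 1.24). The testis cytochrome c Cyct (0.27 and 0.62) and Pgk2 (0.78 and 1.89) did not pass (adjusted p of 0.0751 and 0.0544), and Ldhc had -1.37 and -0.18. Prm1, a protamine of sperm chromatin, had -0.16 and -0.51, and Sycp3, of the meiotic chromosome axis, -0.49 and -0.067. Of the 10 spermatogenic markers 4 were below 0 on both arrays, 4 above 0 on both and 2 of opposite sign, with medians of -0.0045 and -0.013. Testis markers thus also stood on both sides of 0 on arrays where the testis form Cox8c rose. The part of these cell types in the ratios of Cox8b, Cox8c or other members was not tested.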

How the data were processed

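The deposited values are log2 ratios of both channels of an array, 1 per feature, for 44397 features, and limma is named in the submitters' processing notes with no version or role. How background and dyes were corrected is not given in the sources used here. Both columns have a mean of 0; the log base was inferred from the range of the values (highest 5.86). Direction, RA-treated (Cy5) over untreated (Cy3), follows the dyes per the labels and limma's convention of red over green. The number of arrays limits the precision.

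Of the features 33026 had 1 gene symbol in the platform annotation and 11371 had none here. Features of a gene were averaged per array. Of the 70 members 53 rested on 1 feature. Limma 3.58.1 in R 4.3.3 fitted an intercept over both arrays for all 22485 genes (lmFit, eBayes, two-sided, Benjamini-Hochberg), with 1 residual and 2.98 prior degrees of freedom. The fit was also run on simulated data, with known shifts added to independent noise drawn from the spread between these arrays. That run could not show dye bias or spread between cultures. Python 3.11.15 served for the rest. Promoters were matched by Entrez number. Neighbouring genes were taken from RefSeq.

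The members and gene lists were chosen with earlier results of these data known. Named were the members that passed or exceeded 2-fold, all tissue forms and partners, complex II, the 3 highest and 3 lowest of each complex and, of each other list, up to 4 genes that passed; further genes were named after their values were seen. Alternatives were the median over features, median centring, a common spread, robust eBayes, genes with 2 or more features, single features and treat against 1.5-fold.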

Additional observations from a re-analysis of the deposited data

Results flagged for a closer look

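For 13 members the ratios of the lines had opposite signs. Several of these ratios lay close to 0 beside a median SD between features of 0.14: Ndufv3 (0.00063) and Uqcrc2 (0.0022) in the knockout, and Ndufv2 (-0.0017) and Ndufa13 (-0.0087) in V6.5. For such genes the sign on that array gives no direction. The differences, knockout minus V6.5, were not tested, since each line had 1 array, and 24.4% of all named genes had ratios of opposite sign. The widest was that of Cox6a2, the muscle form of a complex IV subunit, at 0.44. In complex I, Ndufb8 differed by 0.36, Ndufb10 by 0.26, Ndufa13 by 0.22, Ndufs3 by 0.14, Ndufv2 by 0.063 and Ndufv3 by 0.043. In complex III, Uqcrc2 differed by 0.20, Uqcrfs1 by -0.15 and Uqcrb by 0.15. In complex IV, Cox5b differed by 0.20, its pseudogene Cox5b-ps by 0.19 and Cox4i1 by 0.13. Uqcrfs1, which encodes the Rieske iron-sulfur protein, was the 1 member of these that was lower in the knockout.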

How the results depend on the processing

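With the median over features, arrays centred on the median or robust eBayes, 7 members were called, the same 7 genes. Of all named genes 17.0%, 16.7% and 16.6% were called in these settings. The 7 genes have 1 or 2 features each, so the median over features could not change their ratios. Scaling both arrays to a common spread called 8, the 7 and Cox4i2, where 17.9% of all genes were called. In treat against 1.5-fold 0 members fell, in complexes I, II and IV 0 each, and 1 rose, where 1.3% of all genes passed. With only genes of 2 or more features, which leaves 17 members, 2 fell and 0 rose: 0 in complex I, 1 in complex II, and 1 down and 0 up in complex IV. Among all genes with 2 or more features 20.5% were called. With every feature tested on its own, 10 of 100 features fell, 4 of them in complex II, 1 in complex III and 1 of Cox4i2. Among all features 16.4% were called, in either direction. With Ndufa4 and Ndufa4l2 counted in complex IV, an alternative chosen after seeing the data, 0 genes of complex I fell. Leaving out the 4 pseudogenes, also chosen then, changed no count of calls over the members or in complexes I, III and IV. None of the 4 was called, so no count could change. Medians and differences between forms moved by less than the spread between features under the scalings tried. Centring an array and the median over features could not change the differences between forms, so for these only the common spread was informative. No paired analysis was possible because each line had 1 array. Leaving out an array leaves the ratio of the other, with no test.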
